A study of Homo sapiens with 3 samples.

Results

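The 10 genes described here encode the enzymes that resect DNA ends and 4 of the human RecQ helicases. They are MRE11, RAD50, NBN, RBBP8, EXO1, DNA2, BLM, WRN, RECQL and RECQL5. They were chosen by name, as a list that uses no measured value, although earlier results of these data were known. Each was found by its Ensembl identifier among the 58051 genes counted. The counts come from RNA-seq of H9, an established human embryonic stem cell line, in 3 replicates of 1 group. The cells carried the wild-type genotype and received no treatment, and total RNA was sequenced after removal of ribosomal RNA. The study measured gene expression in these cells to sort gene features by expression before it compared their DNA breaks. There is no second condition, so nothing here is a response, and errors are the SD over 3 replicates. The labels do not say whether the replicates were separate cultures, so this spread may be technical. H9 is 1 line cultured as a bulk population, in which a change in the share of cells that transcribe a gene and a change in RNA per cell cannot be told apart.

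Resection is the step that commits a double-strand break to repair by homologous recombination. The MRN complex, made of the nuclease MRE11, the zinc-hook ATPase RAD50 and the adaptor NBN, binds the end and, with its cofactor CtIP (the product of RBBP8), nicks the strand that ends 5′ at the break. The cut is then extended over long range, either by the exonuclease EXO1 or by the nuclease and helicase DNA2 working with a RecQ helicase, usually BLM. RecQ helicases unwind DNA with 3′ to 5′ polarity. BLM and WRN are the helicases lost in Bloom and Werner syndromes, RECQL (also called RECQ1) acts at replication forks, and RECQL5 binds RNA polymerase II. Proliferating cells need these enzymes at stalled forks as well as at breaks.

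Totals of 10390984, 12024802 and 8655155 reads were counted in replicates 1, 2 and 3. The members received 7339, 8426 and 6099 of these reads, which is 0.0706%, 0.0701% and 0.0705% of each total. The lowest count of any member in any replicate was 237 (RECQL5 in replicate 3) and the highest was 1145 (BLM in replicate 2). All 6 pluripotency genes examined were in the high expression class (defined with the members' levels), from 259 TPM (SALL4) to 2576 TPM (LIN28A). Of 8 markers of other cell types, none was in that class, 2 were medium (COL1A2, at 25.6 TPM and high by the length of 1 transcript, and FOXA2, at 7.54 TPM), 5 were low and ALB had no read. The summed level of these 8 markers was 42.0, 35.5 and 40.5 TPM in replicates 1, 2 and 3. Markers of pluripotency were thus present as the label of the line asks, and the part of any other cell in the members' levels was not tested.

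All 10 genes were expressed, at levels above the median of all protein-coding genes. Levels are given in TPM, a read count per length that divides the reads of a gene by the length of its exons and scales each replicate to the same sum. Unless another length is named, the length is the union of all exons annotated for the gene. Member means ran from 11.6 to 68.8 TPM with a median of 40.5 TPM, while the median of 19629 protein-coding genes was 7.10 TPM. Over the protein-coding genes of at least 0.01 TPM the median was 11.7 TPM, which RECQL5 did not reach. With the threshold and the number of classes that the study used, but with TPM from counts in place of its Cufflinks estimates, protein-coding genes below 0.01 TPM were classed as nonexpressed and the others were split into low, medium and high by 3 quantiles, here at 3.35 and 27.0 TPM. By this rule 8 of 10 members were high, against 28.8% of protein-coding genes, and NBN and RECQL5 were medium. The class of every member was the same in each of the 3 replicates. The median member stood at percentile 78.4 of protein-coding genes. MRE11, WRN and RAD50 lay close above the upper boundary, with means from 31.3 to 32.7 TPM, and left the high class when the canonical transcript was used as length. With a nonexpressed threshold of 1 TPM, which raises the boundary, 5 of 10 members were high.

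**Figure D1:**
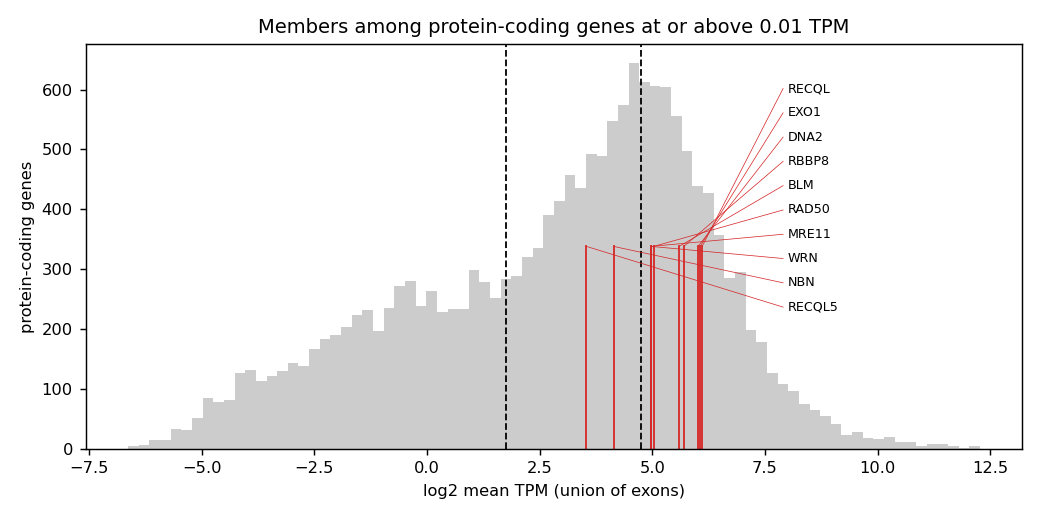
Histogram of the log2 mean TPM (horizontal axis, union of exons, mean of 3 replicates) of protein-coding genes at or above 0.01 TPM (vertical axis, number of genes). Dashed lines mark the class boundaries at 3.35 and 27.0 TPM, and red lines mark the 10 members, of which 8 lie right of the upper boundary and NBN and RECQL5 left of it.

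Among the genes that initiate resection, RBBP8 had the highest level with the union of exons and NBN the lowest. With the canonical transcript RBBP8 was still highest, at 48.6 TPM, but NBN was at 44.5 TPM and MRE11 was lowest, at 21.2 TPM. MRE11 (ENSG00000020922, GRCh38 chromosome 11, 94415570 to 94493885, minus strand) had 31.8, 30.7 and 31.7 TPM in replicates 1, 2 and 3, from 635, 712 and 540 reads. Its mean of 31.4 ± 0.628 TPM (SD, n = 3) had a coefficient of variation of 2.00%, the smallest of the 10 members. RAD50 (ENSG00000113522, chromosome 5, 132556019 to 132646349, plus strand) had 33.9, 31.1 and 33.1 TPM. Its mean was 32.7 ± 1.47 TPM (SD, n = 3), and its range overlapped that of MRE11. RAD50 was nevertheless above MRE11 in all 3 replicates, and with the length of the canonical transcript, 1 representative transcript per gene, the ranges did not overlap.

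NBN (ENSG00000104320, chromosome 8, minus strand), which carries MRN into the nucleus and recruits the kinase ATM, had 18.6, 17.5 and 16.6 TPM, a mean of 17.6 ± 0.972 TPM (SD, n = 3). Each replicate of NBN was below each replicate of MRE11 and RAD50 on this scale. The reads themselves were not fewer. NBN had 938, 1031 and 716 reads, more than MRE11 in every replicate, and the low value comes from dividing them by 19417 bases of annotated exons. RBBP8 (ENSG00000101773, chromosome 18, 22798261 to 23026488, plus strand) had 54.6, 52.5 and 48.6 TPM. Its mean of 51.9 ± 3.04 TPM (SD, n = 3) was above the other 3 initiation genes in every replicate, and its coefficient of variation of 5.85% was the largest of the members.

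The 3 genes of long-range resection were all in the high class, and both nucleases had nearly the same level. EXO1 (ENSG00000174371, chromosome 1, 241847967 to 241895148, plus strand) had 65.1, 68.0 and 67.0 TPM and a mean of 66.7 ± 1.46 TPM (SD, n = 3). DNA2 (ENSG00000138346, chromosome 10, 68414064 to 68472121, minus strand) had 66.1, 65.6 and 62.0 TPM and a mean of 64.6 ± 2.22 TPM (SD, n = 3). EXO1 was below DNA2 in replicate 1 and above it in replicates 2 and 3, and the 2 ranges overlapped. BLM (ENSG00000197299, chromosome 15, 90717346 to 90816166, plus strand), the helicase that acts with DNA2, had 50.1, 48.0 and 46.7 TPM and a mean of 48.3 ± 1.69 TPM (SD, n = 3). No replicate of BLM reached the lowest replicate of either nuclease.

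With the union of exons, the other RecQ helicases included both the highest and the lowest member, while with the canonical transcript RECQL stood below 5 other members. RECQL (ENSG00000004700, chromosome 12, 21468910 to 21501669, minus strand) had 66.1, 69.8 and 70.5 TPM, and its mean of 68.8 ± 2.36 TPM (SD, n = 3) was the highest of the 10. RECQL was the highest member in each replicate, although its range overlapped that of EXO1. WRN (ENSG00000165392, chromosome 8, plus strand), which alone among RecQ helicases also carries an exonuclease, had 29.3, 32.7 and 31.8 TPM and a mean of 31.3 ± 1.73 TPM (SD, n = 3). RECQL5 (ENSG00000108469, chromosome 17, 75626845 to 75667189, minus strand) had 11.3, 11.3 and 12.2 TPM from 258, 299 and 237 reads. Its mean of 11.6 ± 0.516 TPM (SD, n = 3) was the lowest of the members in every replicate. The highest member was 5.94 times the lowest, and the fold was 5.84, 6.19 and 5.78 in replicates 1, 2 and 3.

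**Figure D2:**
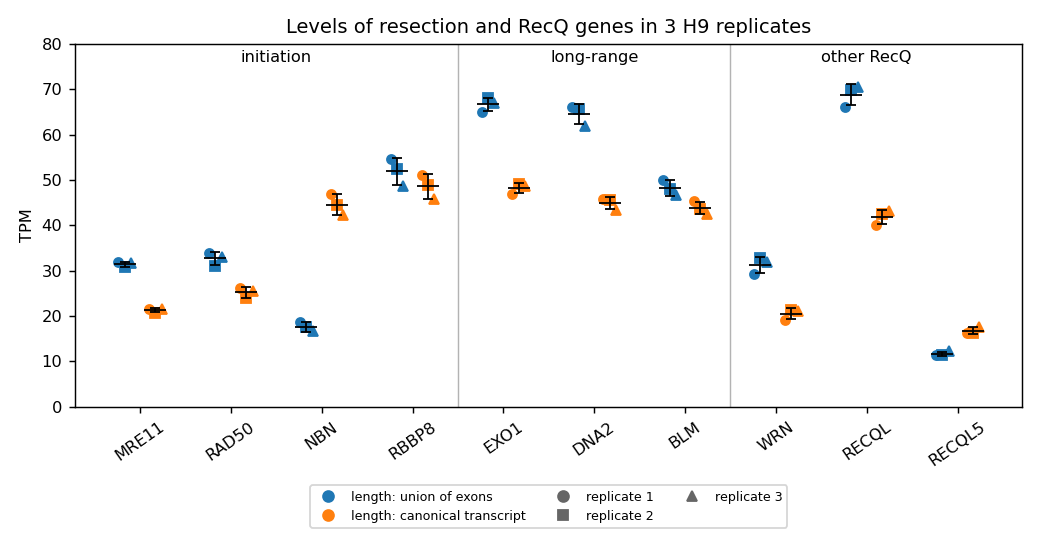
Level of each member in TPM (vertical axis) in replicates 1 (circle), 2 (square) and 3 (triangle), with the union of exons as length in blue and the canonical transcript in orange; black bars show the mean and SD of 3 replicates. The replicates of a gene lie close together, while the change of length lifts NBN from 17.6 to 44.5 TPM and lowers RECQL from 68.8 to 41.9 TPM.

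Ordered by mean level, the members ran RECQL, EXO1, DNA2, RBBP8, BLM, RAD50, MRE11, WRN, NBN and RECQL5. Of the 9 neighboring pairs in this order, 4 had ranges that did not overlap, and 7 without replicate 1. The 4 pairs were DNA2 above RBBP8 by 12.7 TPM, BLM above RAD50 by 15.6 TPM, WRN above NBN by 13.7 TPM and NBN above RECQL5 by 5.99 TPM. The members therefore fell into steps. RECQL, EXO1 and DNA2 were followed by RBBP8 with BLM, then by RAD50, MRE11 and WRN, and last by NBN and RECQL5, each on a step of its own. Within the third step, MRE11 and WRN differed by 0.0987 TPM, with an SD of the difference of 2.24 TPM, and WRN was above MRE11 in 2 of 3 replicates. Of all 45 pairs of members, 39 had ranges that did not overlap. The share among pairs of other genes was not computed with any length, so such counts are not shown to be particular to the members. An exact sign test over 3 replicates cannot give a two-sided p below 0.25, so no test of these differences was made.

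The length used for a gene moved the levels of most members by more than the SD over replicates. With the canonical transcript NBN and RECQL moved furthest, while RBBP8 moved from 51.9 to 48.6 TPM, close to its SD of 3.04 TPM. Annotation lists 38 transcripts of NBN, whose exons together cover 4.20 times the 4622 bases of its canonical transcript, the one that Ensembl takes to represent the gene. For RECQL5 the union was 2.39 times, for RBBP8 1.55 times and for BLM 1.50 times the canonical transcript, and for RECQL it was 1.01 times. The median of protein-coding genes was 1.31 times. With the canonical transcript as length, NBN had 46.9, 44.4 and 42.3 TPM and a mean of 44.5 ± 2.31 TPM (SD, n = 3). NBN then stood above MRE11, at 21.2 ± 0.469 TPM (SD, n = 3), and above RAD50, at 25.2 ± 1.16 TPM (SD, n = 3), in every replicate. RECQL, whose own length hardly changed, fell to 41.9 ± 1.55 TPM (SD, n = 3), since TPM has a fixed sum and most other genes received a shorter length. Most genes also fell, with a median ratio of canonical to union TPM of 0.828 over protein-coding genes of at least 0.01 TPM. Counts per gene do not tell which transcripts the reads came from, so neither length is shown to be the right one here.

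With the canonical transcript as length, 6 members formed an upper group with at most 3.30 TPM between neighbors, although the ranges of EXO1 and DNA2 did not overlap. RBBP8 (48.6 TPM), EXO1 (48.3 TPM), DNA2 (45.0 TPM), NBN (44.5 TPM), BLM (43.8 TPM) and RECQL (41.9 TPM) belonged to it. RAD50 followed 16.7 TPM below RECQL, and MRE11, WRN (20.5 ± 1.16 TPM, SD, n = 3) and RECQL5 (16.7 ± 0.813 TPM, SD, n = 3) came last. These 6 members were in the high class and the other 4 in the medium class. The fold from highest to lowest shrank to 2.91. Of the 45 pairs, 36 were separated without overlap, and 5 pairs were separated by both lengths but in opposite order. RECQL5 was lowest, and MRE11, RAD50 and WRN were below EXO1, DNA2, BLM and RBBP8, with both lengths.

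Ratios between members of the same library do not depend on the scaling of that library. NBN to MRE11 was -0.78, -0.81 and -0.93 on the log2 scale in replicates 1, 2 and 3 with the union of exons, a mean of -0.84 ± 0.08 (SD, n = 3). With the longest transcript the mean log2 ratio was 0.17 ± 0.08 and with the canonical transcript 1.07 ± 0.08, so that the direction within the MRN complex turned with the length. RAD50 to MRE11 was 0.06 ± 0.04 with the union and 0.25 ± 0.04 with either single transcript, above 0 in all 3 replicates. RBBP8 was above MRE11 in every replicate with each length, by 0.72 ± 0.09 with the union and 1.19 ± 0.09 with the canonical transcript. EXO1 to DNA2 was close to even, at 0.05 ± 0.07 with the union and 0.10 ± 0.07 with the canonical transcript.

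Among the RecQ helicases, BLM served as the reference. WRN was below BLM in every replicate and with each length, by a log2 ratio of -0.63 ± 0.13 (SD, n = 3) with the union and -1.10 ± 0.13 with the canonical transcript. The ratio was lowest in replicate 1, at -0.77 with the union, against -0.56 and -0.55 in the others. RECQL5 was below BLM by -2.06 ± 0.11 with the union and -1.39 ± 0.11 with the canonical transcript, again in every replicate. RECQL was above BLM by 0.51 ± 0.10 with the union, but at -0.06 ± 0.10 with the canonical transcript, where it was above BLM in 1 of 3 replicates. The place of RECQL relative to BLM was therefore not settled by these counts.

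**Figure D3:**
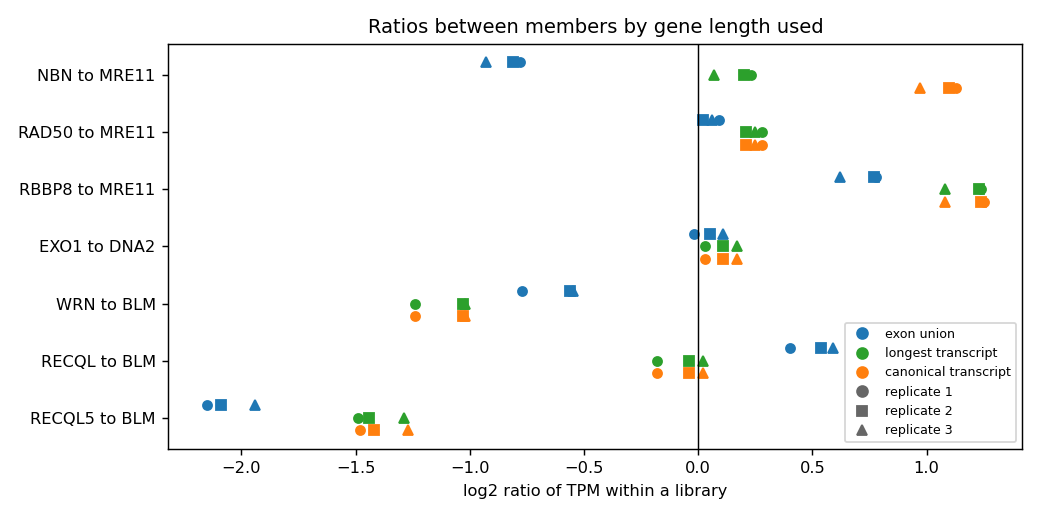
Log2 ratio of TPM between 2 members within a library (horizontal axis) for 7 pairs (vertical axis), with a symbol for each of 3 replicates and a color for each gene length. NBN to MRE11 moves from -0.84 with the union of exons to 1.07 with the canonical transcript, while WRN and RECQL5 stay below BLM throughout.

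By the median, the counts of the members varied less between replicates than those of protein-coding genes with similar summed counts. The chi-square statistic of a gene's 3 counts against the library totals, divided by its degrees of freedom, has a mean of about 1 for pure counting error. Its median is then lower than its mean, so the medians below cannot be set against 1. Its median over the members was 1.03, from 0.365 for DNA2 to 2.60 for WRN. The median was 1.37 over the 4542 protein-coding genes whose summed counts lay in the range of the members. The coefficient of variation of TPM had a median of 3.98% for members and 5.45% for these genes. A single count of RECQL5 carried a counting error of up to 6.50%, and one of BLM up to 3.50%. These errors cover counting only, since PCR copies of a molecule are not independent.

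Relative to the others, replicate 3 gave higher levels to genes of high GC content, and most members are of low GC content. Exon GC content was below the median of protein-coding genes (48.5%) in 9 of 10 members, from 36.7% in NBN to 44.2% in EXO1, and 56.8% in RECQL5. RECQL5 had the highest log2 ratio of replicate 3 to the mean of replicates 1 and 2, at 0.11. RBBP8 and NBN had the lowest, at -0.14 and -0.12. The median was 0.02 over the members, 6 above and 4 below 0, and -0.03 over 9771 protein-coding genes with a mean of at least 100 counts, whose quartiles were -0.12 and 0.08. Across those genes Pearson's r between exon GC content and this ratio was 0.45 and Spearman's rho 0.41. Across the 10 members r was 0.49 and rho 0.18, and without RECQL5 r was -0.01 and rho -0.13, so that the relation among members rests on that gene. Genes of the same libraries are not independent, and the part of GC content in the members' values was not tested. RECQL4, the fifth human RecQ helicase, had a larger ratio than any member. With an exon GC content of 65.1% it had 41.3, 37.2 and 53.9 TPM, and its log2 ratio of replicate 3 was 0.46, or 0.19 after correction for exon GC content.

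**Figure D4:**
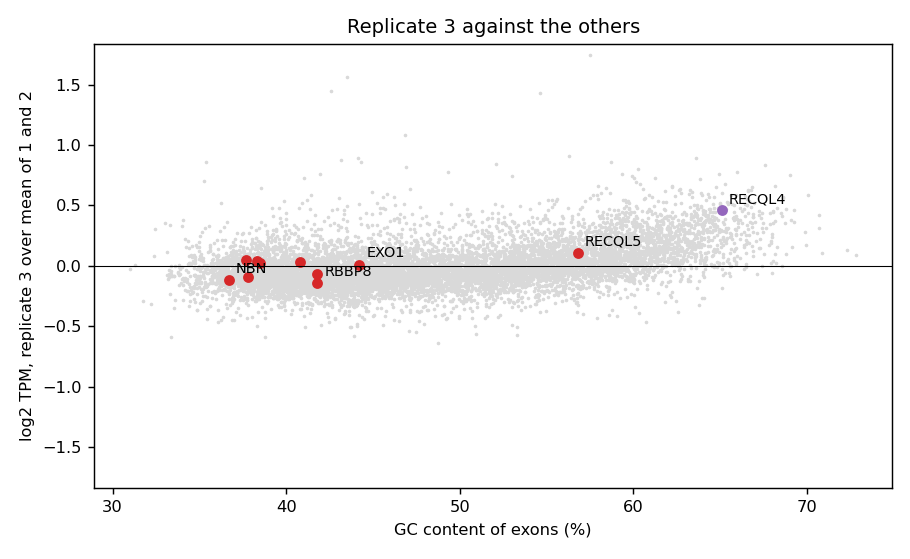
Log2 ratio of TPM in replicate 3 to the mean of replicates 1 and 2 (vertical axis) against the GC content of exons in percent (horizontal axis) for 9771 protein-coding genes with a mean of at least 100 counts (gray), the 10 members (red) and RECQL4 (purple). Members lie between -0.14 and 0.11, and RECQL4, at 65.1% GC, lies at 0.46.

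In 5 of 10 members, a protein-coding gene starts on the other strand within 1000 bp of the member's own start, against 13.4% of protein-coding genes. The pairs are MRE11 with ANKRD49 (94 bp between the starts), RAD50 with IL5 (819 bp), WRN with PURG (73 bp), RECQL with GOLT1B (112 bp) and RECQL5 with SAP30BP (62 bp). By these starts, the outermost ones annotated, all but IL5 are arranged head to head, with the start of the neighbor upstream. IL5 starts inside RAD50 by its outermost start, but upstream of the later RefSeq start of RAD50 used for the motifs below. Levels within the pairs ranged from near even to one-sided with the union of exons. Other lengths were not compared for the neighbors, so the order and folds within pairs may depend on the length. GOLT1B, a Golgi transport gene, had 57.0, 54.8 and 47.4 TPM and was below RECQL in each replicate, by a factor of 1.30 in the means. SAP30BP had 30.1, 31.4 and 30.8 TPM, 2.66 times RECQL5, the single pair in which the neighbor was higher. ANKRD49 had 11.9, 14.9 and 12.6 TPM, and MRE11 was 2.39 times as high. PURG had 5.72, 5.62 and 5.87 TPM, and WRN was 5.45 times as high. IL5, the interleukin gene next to RAD50, had no read in any replicate, and a count of 0 allows up to 3 counts. The lncRNA gene CRTC3-AS1, which starts 205 bp upstream of BLM, had 8, 15 and 6 reads.

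**Figure D5:**
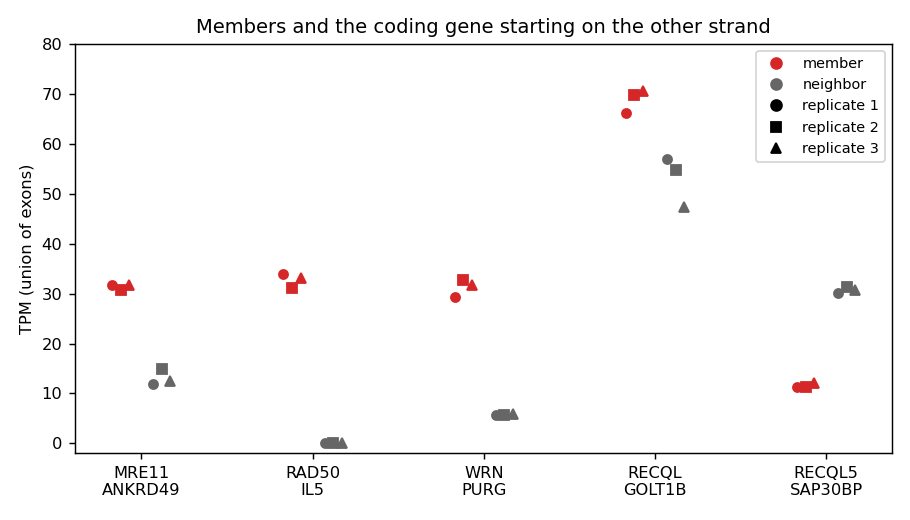
Level in TPM (vertical axis, union of exons) of 5 members (red) and of the protein-coding gene that starts on the other strand within 1000 bp (gray), with a symbol for each of 3 replicates. SAP30BP lies above RECQL5, the other 4 neighbors lie below their member, and IL5 is at 0.

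The DNA before these starts was examined for short motifs, which were chosen after the sequences had been seen. RefSeq promoter windows on GRCh38.p14, from 250 bases before to 50 bases after a start, were held for 7 members with 9 starts. The motif CCGGAAG, a core recognized by ETS factors, was found on either strand in 5 of these 7 members. By window this was 5 of 9, against 10.3% of 35116 windows of all genes and 20.1% of 6680 windows of genes in the high class. The 30-base windows that follow are shown because they hold the feature most of these members share. They read 5′ to 3′ along the strand of the gene and show the match nearest to the start, with the match in capitals (CTTCCGG is the same motif on the opposite strand).
MRE11 (chr11:94493983-94494012, minus strand): cttgcatctcaCTTCCGGgttcgtctccta
RAD50 (chr5:132556875-132556904, plus strand): ccgtaccgcacCCGGAAGtcggagctgcgc
BLM (chr15:90717332-90717361, plus strand): gaataggcaagCTTCCGGcgggaagtgagc
RECQL (chr12:21501625-21501654, minus strand): aacggaccgacCCGGAAGggtggatgctct
RECQL5 (chr17:75667304-75667333, minus strand): caagacgccgaCTTCCGGgcggaaaggcag
The motif begins 157 bases before the RefSeq start in MRE11, 91 in RAD50, 3 in BLM, 8 in RECQL and 168 in RECQL5.

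The motif CCAAT, a box bound by NF-Y, was found on either strand in 4 of the 7 members. By window this was 4 of 9, against 34.6% of windows of all genes and 37.4% of those in the high class. RECQL held 5 matches, BLM 3, MRE11 2 and RECQL5 1. The match nearest to each start is shown in capitals, where ATTGG is the box on the opposite strand.
MRE11 (chr11:94493889-94493918, minus strand): tgcgtgcggtagCCAATgagagccgaactg
BLM (chr15:90717313-90717342, plus strand): cccaggaagcagCCAATcggaataggcaag
RECQL (chr12:21501645-21501674, minus strand): gagttatctgtgATTGGctgaacggaccga
RECQL5 (chr17:75667245-75667274, minus strand): ccacactggaaaCCAATcaaaacggcagtt
The motif TTTNNCGC, of the kind that E2F factors bind, was found in EXO1 alone among the 7 members, at both of its starts. By window this was 2 of 9, against 6.89% of windows of all genes and 11.4% of those in the high class. At the first EXO1 start it begins 4 bases after the start.
EXO1 (chr1:241848197-241848226, plus strand): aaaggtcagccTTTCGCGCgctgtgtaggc
RBBP8 held none of these motifs at either start. The letters of CCAAT and CCGGAAG do not overlap in the windows shown. A match describes the sequence and is no evidence that a factor binds there, and binding was not measured in these libraries.

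Reads of neighboring or similar genes could add to the counts of some members. In 7 members, some exon sequence was shared with an oppositely oriented gene, which is the case for 36.3% of protein-coding genes. Most of this was small, and RECQL and RECQL5 had the largest shares. PYROXD1, which converges on RECQL, covers 41.5% of the exon length of RECQL, and PYROXD1 had a mean of 19.3 ± 0.764 TPM (SD, n = 3) against 68.8 TPM for RECQL. SMIM5 covers 17.3% of RECQL5 and had 1.51 ± 0.218 TPM. Whether the counting used the strand of reads is not given in the sources used here, and the part of such reads was not tested. ENSG00000283782, a transcript unit on the strand of RAD50, covers 76.9% of the exon length of RAD50 in the annotation used here, and it is not among the identifiers counted. No pair of members shared an alignment of 500 bases or more at 90% identity. The processed pseudogene MRE11P1, at 92.3% identity to MRE11 over 2143 bases, had no read, and RBBP8P1 had 1 read in 1 replicate.

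Partners of the members in the same pathway spanned a wider range of levels, from 5.55 to 776 TPM, than the members. The partners are more genes than the members, and a range widens with the number of genes. Of 12 cofactors of resection, 9 were high and 3 medium, against 28.8% of protein-coding genes in the high class, and their median was 40.7 TPM. RPA1, the large subunit of the protein that coats the resected strand, was highest at 151 ± 5.27 TPM (SD, n = 3), and ATM, the kinase activated by MRN, was lowest at 10.1 ± 0.751 TPM. Of 10 factors that restrain resection, 7 were high and 3 medium, with a median of 79.4 TPM. XRCC5, the Ku80 subunit that first caps broken ends, was highest at 776 ± 37.9 TPM, and the shieldin subunit SHLD1 was lowest at 5.55 ± 0.522 TPM. Of 5 genes of strand exchange after resection, 3 were high and 2 medium, from 6.79 ± 1.15 TPM for RAD52 to 68.2 ± 2.14 TPM for RAD54L.

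Among these partner genes, the one nearest in mean level was named for 9 of the members, as a likeness of level over 3 replicates and of nothing else. TOP3A, the topoisomerase that works with BLM, was nearest to MRE11, RAD50 and WRN, at 32.6 ± 0.575 TPM (SD, n = 3). TP53BP1, which blocks resection, was nearest to EXO1 and DNA2, at 65.6 ± 2.52 TPM. RMI2 was nearest to RBBP8, at 53.4 ± 3.53 TPM, and RAD54L to RECQL, at 68.2 ± 2.14 TPM. EXD2, at 23.3 ± 0.488 TPM, was nearest to NBN, and ATM, at 10.1 ± 0.751 TPM, to RECQL5. These 2 were less alike, with log2 ratios to the member of 0.41 for EXD2 and -0.19 for ATM. For the other members named here the log2 ratio was at most 0.06 in size. With the canonical transcript as length, the nearest gene stayed the same for RAD50 and EXO1 and changed for the other members, so that these likenesses depend on the length.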

How the data were processed

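Total RNA of 3 replicates of untreated H9 cells was sequenced. The authors trimmed reads with Trim Galore (version 0.4.4) and aligned them to GRCh38 with TopHat2 (version 2.1.1), and they deposited whole-number counts of reads per gene, without normalization. For the counting step, the tool, the gene annotation and the handling of strand were not given in the sources used here. Lengths and positions came from GENCODE release 44, on the same build, where 56948 of 58051 identifiers matched. TPM was computed over matched genes from the union of exons; the study's own TPM came from Cufflinks (version 2.2.1), which estimates transcripts. No test of groups was possible with 1 condition, and values are means with SD over 3 replicates. Named genes were the 10 members, the highest and lowest of each context list, the list gene nearest in level to each member (1 is not reported here), and genes that overlap, start beside or are pseudogenes of a member; other genes were named after their values were seen. Members and lists were chosen with earlier results of these data known. Counts of 8655155 to 12024802 per replicate gave each member at least 237 reads. Copies were sought with blastn (at least 90% identity over 500 bases, a length set after seeing repeat matches). Scaling factors came from edgeR 4.0.16 and DESeq2 1.42.0 in R 4.3.3, and other steps used Python 3.11.15. Levels and classes were tested on simulated data.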

Additional observations from a re-analysis of the deposited data

How the results depend on the processing

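No paired analysis was possible because no second condition exists here. With the canonical transcript, the longest transcript or CPM (which uses no length), the log2 ratio of NBN to MRE11 turned from -0.84 to 1.07, 0.17 and 0.50, and that of RECQL to BLM from 0.51 to -0.06, -0.06 and -0.55. In the same order, RAD50 to MRE11 became 0.25, 0.25 and 0.52, and RBBP8 to MRE11 became 1.19, 1.18 and 0.13. RECQL5 to BLM became -1.39, -1.41 and -1.91, the fold from highest to lowest member 2.91, 2.92 and 3.74, and the median percentile 80.2, 77.6 and 81.7. WRN to BLM was -1.10 with either transcript, and EXO1 to DNA2 was -0.20 with CPM. These alternatives change the length alone. The number of high members was 5, against 8, with a threshold of 1 TPM or a filter of at least 10 reads, since both leave out genes at the bottom and raise the boundary. The median percentile was 71.3 with that filter and 91.5 over all genes with a TPM, which change the genes ranked. The fold was 6.17 with the median of the replicates, which was 69.8 TPM for RECQL and 11.3 TPM for RECQL5. The median log2 ratio of replicate 3 was 0.07 after correction for exon GC content.

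Without replicate 1, 2 or 3, the neighbors without overlap numbered 5 to 7 against 4 with all replicates, with the highest value, 7, without replicate 1. Fewer samples narrow the ranges. TMM factors, DESeq2 factors, thinning to 50%, the median of the replicates and leaving out a replicate moved no member's mean TPM by more than its SD. With 3 values, the median or leaving out a replicate cannot move a mean that far, so those outcomes were fixed in advance. TMM and DESeq2 factors shift replicates against each other and leave their mean nearly in place. Only the thinning could have moved a member here. The canonical transcript moved 2 members higher and 8 lower, the longest transcript 4 and 5, CPM 9 and 1, mitochondrial genes left out 5 and 0, and thinning to 10% 1 and 4. Leaving out mitochondrial genes shrinks the total and raises every member, so that none could move lower. CPM is on another scale than TPM, so the 9 and 1 do not measure stability.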
